A study of Drosophila melanogaster with 4 samples.

Results

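LSD1 clusters of the interior of chromosome arm 2L are the stretches of 2L chromatin enriched by an antibody against LSD1, away from both ends of the arm sequence. They were taken from the combined list of the replicate set as all regions of significant enrichment on 2L whose midpoint lies outside the first and the last 2 Mb of the arm sequence. The rule uses position only and kept 1498 clusters, which are 82.7% of the 1812 clusters of 2L and 15.2% of the 9853 clusters of the combined list. The material was nuclei of wild-type Drosophila melanogaster larvae of the third instar, of the strain Oregon-R, grown from population cages. Chromatin was fixed with formaldehyde, sonicated and precipitated with the antibody Q3430 in 2 LSD1 ChIP samples, and 2 input samples of unselected chromatin served as their background. Whole larvae mix many tissues, so a cluster may come from any of them, and the labels do not say whether the replicates were separate collections. The spread between them may therefore be technical. A permutation test over 2 libraries cannot reach 0.05, so all comparisons here are descriptions with no test. All coordinates are 1-based, on FlyBase release 5.

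LSD1 is a histone demethylase that removes methyl groups from a lysine of the histone tail that marks promoters and enhancers of active genes. In the fly it is the product of Su(var)3-3, a gene first known because its mutation relieves the silencing of genes placed near heterochromatin. It acts together with the corepressor CoREST, and it is known for helping to set the border between active and silent chromatin and for keeping developmental genes off in the wrong cells. A chromatin regulator of this kind can be spread over long stretches of a chromosome or sit at short sites. The lists for 2L held both wide and narrow clusters, but the width of a called cluster does not by itself tell these forms apart.

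Combined clusters took up 34.1% of the 19.0 Mb of the interior. Clusters of replicate 1 took up 23.1% of it and those of replicate 2 26.2% (24.7 ± 2.22%, SD, n = 2). Replicate 1 placed 886 clusters there, or 46.6 per Mb (exact Poisson 95% interval 43.6 to 49.8), and replicate 2 placed 1228, or 64.6 per Mb (interval 61.0 to 68.3). The combined list held 78.8 per Mb (interval 74.9 to 82.9). These intervals, like all others here, cover counting error only, and the depth behind them is unknown because no list gives reads. A stretch without a cluster therefore cannot be told from a stretch that could not be called.

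Most of the 1498 clusters were short and a minority were broad. The median width was 1948 bp, with the middle 50% of clusters from 1353 to 3910 bp, the narrowest at 1001 bp and the widest at 96413 bp. The clusters wider than 10 kb, called domains here, numbered 138. They made up 9.21% of the clusters and 46.4% of their 6.48 Mb. Each cluster carries 1 enrichment value from the authors, whose unit no header names. Where values of different lists are set side by side below, it is not known that the lists share a scale. A higher value in 1 list is therefore not read as stronger enrichment. The median value was 0.42 over all members, 0.86 over the domains and 0.41 over the 1360 clusters of 10 kb or less. Width and value went together across clusters (Spearman's rho of 0.53, n = 1498, all from the same libraries), more weakly within the domains (rho of 0.19, n = 138) than within the shorter clusters (rho of 0.40, n = 1360).

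The borders of the interior were set by position alone, and the nearest cluster on each side of them is given here. At the first border the nearest cluster inside, from 2009372 to 2011832, had a value of 0.33 and was found in replicate 1, and the nearest one outside, from 1998444 to 2000140, had 0.34 and was found in replicate 2. At the last border a cluster of 8999 bp lay inside, from 21000652 to 21009650, with a value of 0.62. A cluster of 10215 bp lay outside it, from 21009688 to 21019902, with 0.65. Both of these were found in both replicates. The rule thus separated neighbours of similar value at either end.

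Support in the single-replicate lists was judged by an overlap of at least 1 bp. Of the 1498 members, 569 (38.0%, exact binomial 95% interval 35.5 to 40.5) overlapped a cluster of each replicate, against 38.1% of all clusters of the combined list. Replicate 1 alone supported 138 (9.21%, against 10.1% of all clusters), replicate 2 alone supported 376 (25.1%, against 22.7%), and 415 (27.7%, interval 25.4 to 30.0, against 29.1%) overlapped no cluster of either replicate. In number, the 2L interior was therefore supported about as the whole list was. The combined list was made from the same libraries, so none of these shares is an independent check of a cluster.

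In bases the support was much higher than in numbers of clusters, because the supported clusters were the wide ones. The 569 members found in both replicates held 75.5% of all member bases and the 415 found in neither held 8.42%. Of the 6.48 Mb inside combined clusters, 66.9% lay in clusters of replicate 1, 75% in clusters of replicate 2 and 57.1% in both. Of the 12.5 Mb outside them, 0.446% lay in clusters of replicate 1 and 1.02% in clusters of replicate 2. The combined list therefore took in nearly all that either replicate called on the interior: 6 clusters of replicate 1 and 41 of replicate 2 overlapped no combined cluster, and none of these was wider than 1933 bp. Read between the replicates alone, bases inside replicate 1 clusters were covered to 84.2% in replicate 2 and bases outside them to 8.81%. Conversely, 74.2% of the bases inside replicate 2 clusters and 4.93% of those outside lay in clusters of replicate 1.

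Support went with width. All 138 domains overlapped a cluster of each replicate, as did 137 of the 148 clusters over 5000 and up to 10000 bp (92.6%), 145 of the 197 over 3000 and up to 5000 bp (73.6%) and 112 of the 237 over 2000 and up to 3000 bp (47.3%). Among the 442 clusters over 1300 and up to 2000 bp it was 37 (8.37%). None of the 336 clusters of at most 1300 bp overlapped both, and 268 of them overlapped neither. The narrowest cluster of either replicate list spans 1301 bp and that of the members 1001 bp, so the combined list holds a class of widths that neither replicate list has. These 268 make up 64.6% of the 415 unsupported members. A wide cluster has more bases that a replicate cluster can touch, and the overlap rule does not allow for this.

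**Figure D1:**
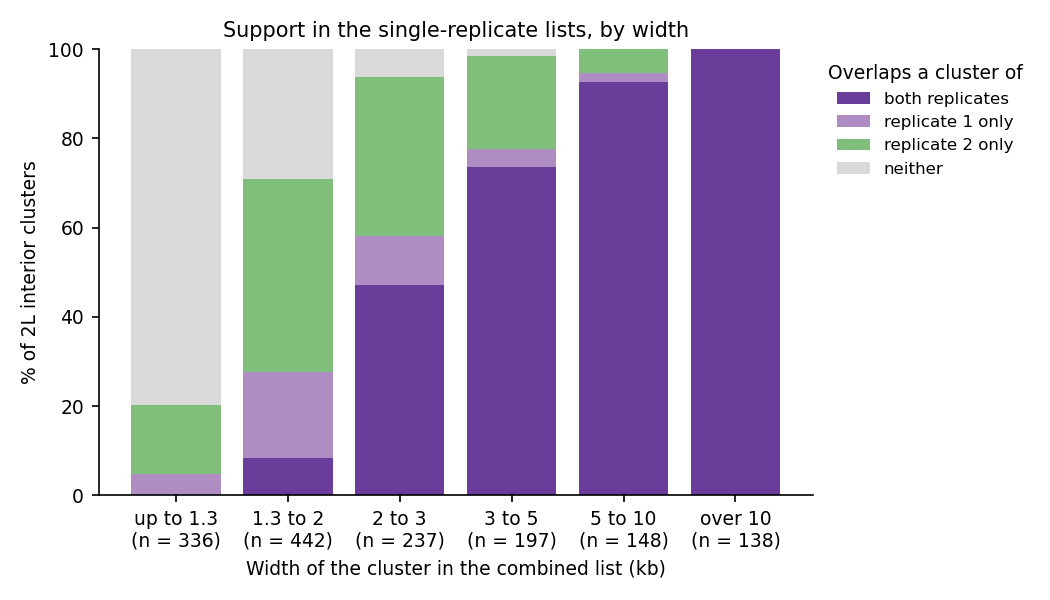
Share of the clusters of the 2L interior that overlap a cluster of both replicates, of 1 replicate or of neither (y axis, %), in 6 classes of width in the combined list (x axis, kb, with the number of clusters in each). The share found in both is 0 up to 1300 bp, 47.3% from 2000 to 3000 bp and 100% over 10 kb.

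Among clusters over 2000 and up to 5000 bp, support in both replicates went with the enrichment value within a class of width. The value and the replicate calls come from the same libraries, so this link is not independent and is given as a description. The members were put in 4 classes of nearly equal size by value. Of the clusters over 2000 and up to 3000 bp, 37 of 41 in the highest class were found in both replicates (90.2%), and 5 of 35 in the lowest class (14.3%). Of those over 3000 and up to 5000 bp it was 65 of 70 in the highest class (92.9%) and 6 of 16 in the lowest (37.5%). From 1300 to 2000 bp the order did not hold, with 0 of 10 in the highest class and 22 of 230 in the lowest (9.57%). Up to 1300 bp no member was found in both replicates in any class of value. For the 569 members found in both lists, the values of the main overlapping clusters of the replicates went together (Pearson's r was 0.75 and Spearman's rho was 0.69 over 569 members, which share their libraries and whose values go with width).

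The largest value of the whole interior belonged to a cluster without replicate support. It lay from 19673074 to 19674094, was 1021 bp wide and had a value of 1.89. No cluster of replicate 1 lay within 87697 bp of it, none of replicate 2 within 87853 bp and no other member within 86746 bp. Another pair, from 4181216 to 4182216 and from 20163370 to 20164458, had the same value of 1.40 to all digits deposited, and neither was found in a replicate. Of the 60 members with a value of at least 1, 54 were found in both replicates and 42 were domains. The 6 found in neither were 1001 to 1475 bp wide. Exactly repeated values occurred in 124 of the 1498 members (8.28%). They were in 69 of the 415 unsupported members (16.6%), in 6 of the 569 members found in both (1.05%) and in none of the 138 domains. In members found in replicate 1 only it was 6 of 138 (4.35%), and in replicate 2 only 43 of 376 (11.4%). Among clusters of at most 1300 bp it was 57 of 336 (17.0%), so width and support are not separated here.

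Among the 10 members of largest value, those with support from both replicates were all domains, of 11073 to 90729 bp. A domain of 19533 bp from 6074178 to 6093710 had a combined value of 1.59, and its single clusters had 1.76 in replicate 1 and 1.43 in replicate 2. It was covered to 99.5% in replicate 1 and 98.6% in replicate 2. From 8711448 to 8724192 a domain of 12745 bp had a combined value of 1.40, with 1.57 in replicate 1 and 1.31 in replicate 2. Its neighbour from 8730470 to 8741542, of 11073 bp, had 1.30, with 1.41 in replicate 1 and 1.20 in replicate 2. Each replicate list held exactly 1 cluster in these domains. Both neighbours and another domain form a group of 51919 bp from 8689624 to 8741542, in which the combined values run from 1.09 to 1.40. The domain from 10494514 to 10507774, of 13261 bp, had 1.28 and was likewise a single cluster in each replicate, covered to 99.2% and 98.2%. Wider domains stood among them. The second widest of the interior, from 12457440 to 12548168, had a combined value of 1.34, between those of the neighbours at 1.40 and 1.30, with 1.41 in replicate 1 and 1.27 in replicate 2. The domain from 5282806 to 5308748, 25943 bp wide, had 1.28. That from 9166220 to 9218964, with 52745 bp, had 1.26.

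Among the members found in 1 replicate only, values were lower. In replicate 2 the highest combined values were 0.74 from 17167536 to 17169198, 0.68 from 14848226 to 14852284 and 0.68 from 9333794 to 9336468, and replicate 2 clusters covered them to 100%, 100.0% and 94.9%. In replicate 1 they were 0.61 from 19775252 to 19776314, 0.53 from 16423082 to 16424558 and 0.53 from 7778122 to 7779804. The first of these was touched by replicate 1 over only 2.07% of its length, while the other 2 were covered to 91.3% and 78.5%. An overlap of 1 bp can thus stand for very little. When at least 50% of a member had to be covered in each replicate, 472 of 1498 remained (31.5%).

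Domains were covered almost completely in each replicate. Their median covered share was 92.5% in replicate 1 and 91.1% in replicate 2, and 135 of the 138 (97.8%, interval 93.8 to 99.5) were covered to at least 50% in each. A total of 81 domains in replicate 1 and 80 in replicate 2 were covered to more than 90%. The replicates divided them differently. A domain was a single cluster in 63 cases in replicate 1 and in 43 cases in replicate 2, with a median of 2 clusters in each and at most 7 in replicate 1 and 9 in replicate 2. Replicate 2 held more pieces in 45 domains, replicate 1 in 32, and the numbers were equal in 61. The longest run of bases in neither replicate had a median of 346 bp per domain and reached 3663 bp.

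**Figure D2:**
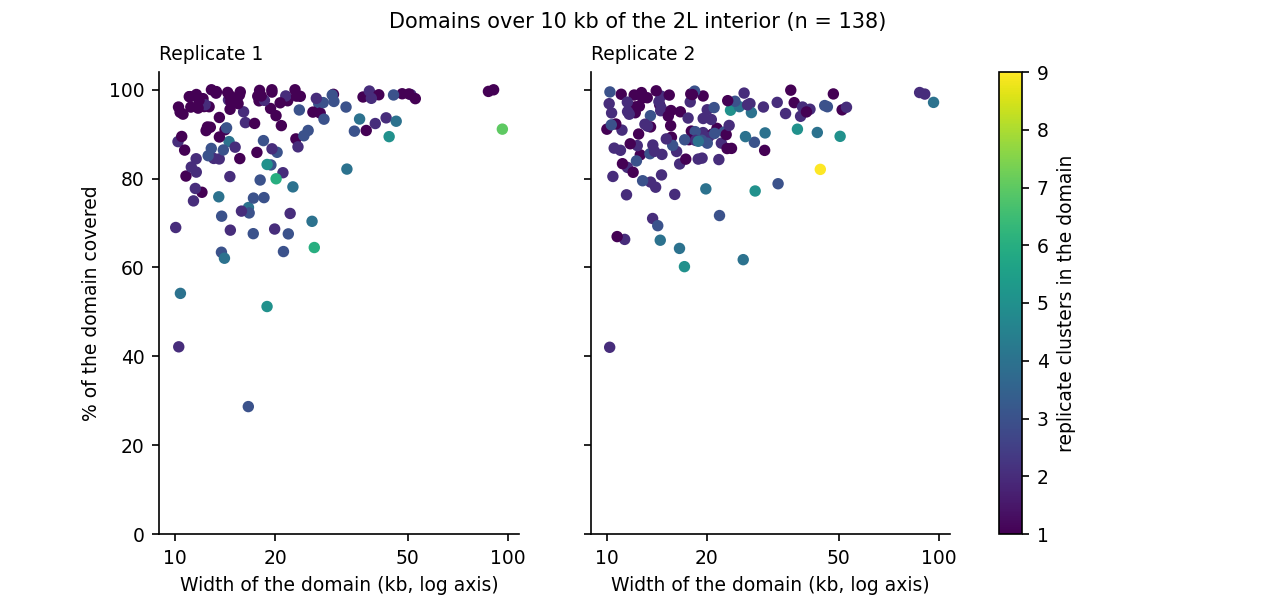
Share of each of the 138 domains covered by clusters of replicate 1 (left) and replicate 2 (right) (y axis, %) against the width of the domain in the combined list (x axis, kb, log scale), coloured by the number of replicate clusters that overlap it. The medians are 92.5% and 91.1%.

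The 3 widest domains lay between 12.4 and 14.6 Mb. The widest, from 14472378 to 14568790, spanned 96413 bp and was broken into 7 clusters in replicate 1 and 4 in replicate 2. The next, from 12457440 to 12548168, spanned 90729 bp and was 1 cluster in replicate 1, covering 100.0%, and 2 in replicate 2, covering 99.0%. The domain from 13070628 to 13158176 spanned 87549 bp, with 99.6% covered by 1 cluster of replicate 1 and 99.4% by 2 of replicate 2. Its replicate 1 cluster ran on to the left, from 13051817 to 13157853, and with 106037 bp it was the widest cluster of either replicate on the interior. The fourth and the twelfth widest were neighbours, from 9166220 to 9218964 (52745 bp, value 1.26) and from 9120662 to 9161616 (40955 bp, value 1.04), and each was 1 cluster in replicate 1 and 2 in replicate 2. A domain of 48155 bp from 2886194 to 2934348 was 1 cluster in each list, covered to 99.1% in both. The most divided of the 12 widest, from 16588276 to 16632270, had a lower value, 0.68, with 5 clusters in replicate 1 and 9 in replicate 2, and coverage of 89.4% and 82.1%.

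A few domains rested mainly on 1 replicate. The least covered in replicate 1, from 8865136 to 8881718, had 28.7% of its 16583 bp in clusters of replicate 1 and 64.3% in clusters of replicate 2, and its value of 0.38 was the lowest of all domains. From 10464416 to 10474656, 42.1% was covered in replicate 1 and 99.5% in replicate 2. The reverse held from 12819402 to 12829624, with 96.1% in replicate 1 and 42.0% in replicate 2. These 3 are the domains that missed coverage of 50% in a replicate.

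The edges of domains were less firmly placed than their bodies. In the first 500 bp inside an edge, 50.2% of bases lay in clusters of replicate 1, 44.3% in clusters of replicate 2 and 24.8% in both. From 500 to 1000 bp inside it was 77.0%, 73.7% and 60.6%, and at more than 10000 bp inside it was 98.0%, 97.8% and 96.2%. In the first 500 bp outside, 11.3% lay in clusters of replicate 1 and 8.96% in clusters of replicate 2. The outermost cluster of replicate 1 began inside the combined domain in 110 of 138 cases and that of replicate 2 in 121, by a median of 258.5 and 277 bp over all domains. The combined list thus usually drew the first edge farther out than each replicate did. Outside the edge, coverage climbed again with distance, to 36.5% in replicate 1 and 42.7% in replicate 2 at 5000 to 10000 bp, above the 23.1% and 26.2% of the interior as a whole. The flank of a domain can hold other domains, which are counted here. The dip next to the edge follows from its definition as the end of a cluster.

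**Figure D3:**
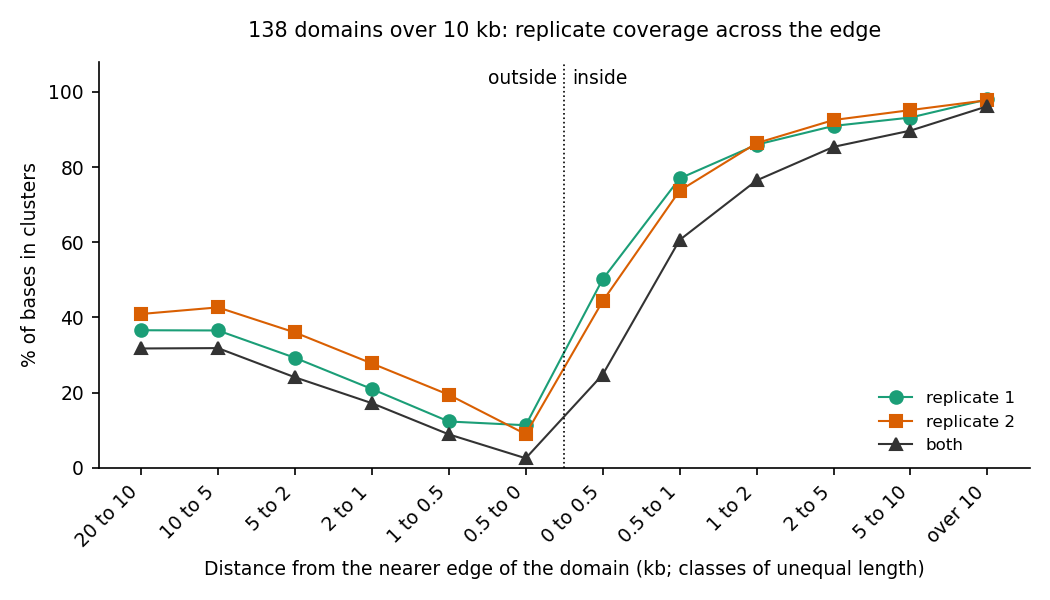
Share of bases in clusters of replicate 1, of replicate 2 and of both (y axis, %) by distance from the nearer edge of the 138 domains (x axis, kb, in classes of unequal length, outside on the left and inside on the right). The share in both is 24.8% in the first 500 bp inside and 96.2% at more than 10 kb inside.

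Many domains lay within 20 kb of another domain. With gaps of up to 20 kb joined, the 138 domains fell into 87 groups, of which 54 were single domains, 22 were pairs and 11 had 3 or more, and 84 domains (60.9%) had a partner. The largest groups held 5 domains each, from 18456052 to 18576892 and from 8825572 to 8920716. The most compact long group ran from 14364770 to 14568790 over 204021 bp, of which 4 domains took up 197726 bp, and 90.1% of it was covered in replicate 1 and 95.2% in replicate 2. Between neighbouring domains the median gap was 39513 bp, 26 of the 137 gaps were under 5000 bp and 28 were over 200 kb. The smallest gap was 31 bp, and the replicate 1 cluster from 13051817 to 13157853 spanned 2 domains. Replicate 1 clusters also ran across the gap of 599 bp after 7915406 and that of 51 bp after 8898078. No replicate 2 cluster crossed any of these gaps. How often the combined list divided a stretch that was 1 cluster in a replicate was not counted. The share with a partner was not set against a random placement.

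Long parts of the arm held no domain at all. The longest ran from 14689803 to 16248405, over 1.56 Mb, and began directly behind the richest stretch of the interior. It held 99 members, or 63.5 per Mb, of which the widest spanned 9295 bp, 17 were found in both replicates (17.2%) and 41 in neither. Replicate 1 covered 3.91% of it with 26 clusters and replicate 2 7.96% with 57, and neither list had a cluster over 10 kb there. This part was chosen for lacking wide clusters, and it was not empty of shorter ones, but clusters were also sparser there. The interior as a whole held 78.8 members, 46.6 clusters of replicate 1 and 64.6 of replicate 2 per Mb. A further 4 domain-free parts exceeded 500 kb. Those from 11197059 to 11950935, from 17461689 to 18140309 and from 16859157 to 17374517 were covered to 5.63%, 4.73% and 3.26% in replicate 1 and to 10.5%, 7.36% and 4.08% in replicate 2. The fourth, from 9788141 to 10464415, was different. It held 68 members, or 100.6 per Mb, 37 of them found in both replicates (54.4%), and was covered to 18.3% in replicate 1 and 17.4% in replicate 2. In the interiors of the other arms the longest domain-free parts measured 0.437 Mb on 2R, 0.613 Mb on 3L, 0.718 Mb on 3R and 0.841 Mb on X, but each is a single extreme value and no test was made.

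At 100 kb, the 190 full windows of the interior ranged from empty to almost filled. Covered shares ran from 0 to 84.6% in replicate 1, with a median of 21.0%, and from 0 to 93.7% in replicate 2, with a median of 24.8%. The replicates ordered the windows alike (Pearson's r was 0.96 and Spearman's rho was 0.95 over 190 windows, which share libraries and, at their borders, clusters). Of 189 steps between neighbouring windows, 159 (84.1%) went the same way in both replicates. At 20 kb the correlation was still 0.93 over 950 windows.

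Windows of the same megabase could differ widely. Of the variance of the 100 kb windows, 83.7% in replicate 1 and 80.5% in replicate 2 lay within the 19 megabases, and the remainder between them. Windows within megabases hold 171 of the 189 degrees of freedom (90.5%), so these shares do not show that the unevenness belongs to a scale finer than 1 Mb. Within a megabase the highest and the lowest window differed by a median of 56.1 percentage points in replicate 1 and 58.6 in replicate 2. Neighbouring windows were only loosely alike, with a correlation of 0.24 in replicate 1 and 0.27 in replicate 2 over 189 pairs at 100 kb, 0.07 and 0.08 at 200 kb and 0.02 and 0.07 at 300 kb. Of the 34 windows in the top 20% of both replicates, 15 had no such neighbour, and of the 32 in the bottom 20% of both, 14 had none. On the other arms the within-megabase part ran from 83.0% on 3R to 90.6% on 2R in replicate 1 and from 83.0% on 3R to 90% on X in replicate 2. On 2L it was thus the second lowest of the 5 arms in replicate 1 and the lowest in replicate 2, without a test.

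**Figure D4:**
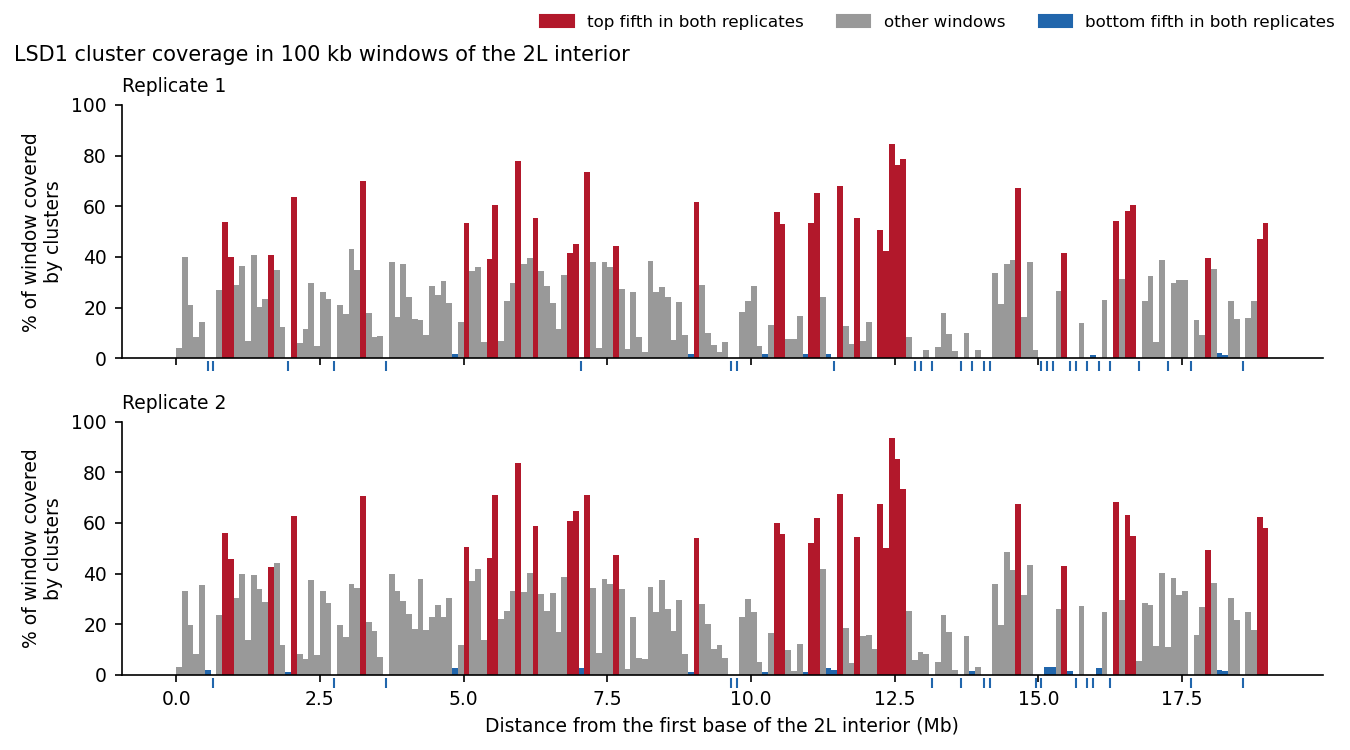
Share of each 100 kb window covered by clusters (y axis, %) along the 2L interior (x axis, distance from its first base in Mb), in replicate 1 (top) and replicate 2 (bottom). Red marks windows in the top 20% of both replicates, blue those in the bottom 20% of both, and ticks below the axis mark windows at 0. The highest window reaches 84.6% in replicate 1 and 93.7% in replicate 2.

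The richest window, from 14.4 to 14.5 Mb, was covered to 84.6% in replicate 1 and 93.7% in replicate 2 (89.2 ± 6.43%, SD, n = 2) by 3 members centred there, 2 of them domains, and parts of others. The window from 7.9 to 8.0 Mb followed with 80.9 ± 4.07%, from 7 members of which 4 were domains. Windows from 14.5 to 14.6 Mb (80.7 ± 6.17%) and from 14.6 to 14.7 Mb (76.0 ± 3.75%) continued the first. That from 9.1 to 9.2 Mb reached 72.4 ± 1.58% with just 2 members, both domains. A window could also be rich through many middle-sized domains, as from 13.5 to 13.6 Mb, where 10 members, 4 of them domains, gave 69.7 ± 2.48%. The remaining windows among the 10 richest were those from 5.2 to 5.3 Mb, 16.6 to 16.7 Mb, 7.5 to 7.6 Mb and 13.1 to 13.2 Mb, at 63.5% to 70.4%.

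Windows chosen in one replicate were rich in the other. Of the 19 windows in the top 10% of replicate 1, 15 were in the top 10% of replicate 2, and their median there was 67.4%. All 24 windows covered to over 50% in replicate 1 were so in replicate 2 too, where the lowest had 50.6%. Replicate 2 had 27 such windows, and the lowest of them had 41.4% in replicate 1. At the other end, 28 windows were empty in replicate 1 and 17 in replicate 2, and 15 were empty in both. The windows empty in replicate 1 reached at most 11.2% in replicate 2, and those empty in replicate 2 at most 3.49% in replicate 1. Because more than 10% of windows were at 0 in replicate 1, its bottom 10% is a choice among ties, and 10 of 19 were shared there. On 2L, 7.89% of windows were empty in both replicates, against 4.68% on 2R, 3.90% on 3L, 5.44% on 3R and 5.43% on X, counts of 15 windows against 8, 8, 13 and 10.

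**Figure D5:**
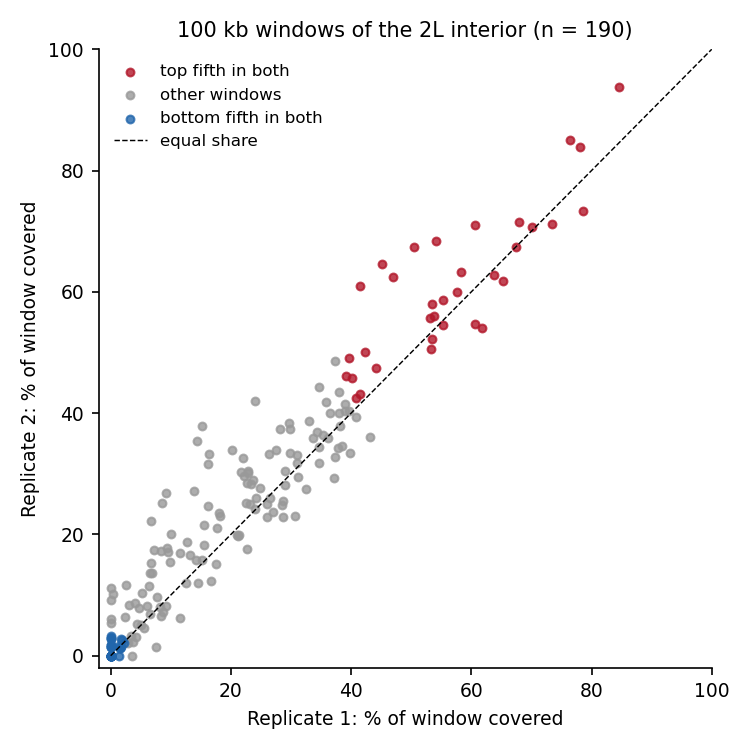
Covered share of each 100 kb window of the 2L interior in replicate 2 (y axis, %) against replicate 1 (x axis, %), with the line of equal shares. The 34 windows in the top 20% of both are red, the 32 in the bottom 20% of both blue, and points lie close to the line with Pearson's r of 0.96.

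Rich stretches, taken as 2 or more adjacent windows in the top 20% of both replicates, numbered 8 and added up to 1900 kb. The longest ran from 14.2 to 14.7 Mb and was covered to 66.5% in replicate 1 and 73.9% in replicate 2 (70.2 ± 5.23%, SD, n = 2). It held 44 members, 8 of them domains, with 22 found in both replicates, and its longest gap between members was 17545 bp. The other 7 were 200 kb long. They lay from 2.8 to 3.0 Mb (48.9 ± 2.79%), 7.4 to 7.6 Mb (54.2 ± 6.19%), 8.8 to 9.0 Mb (53.0 ± 13.8%), 12.4 to 12.6 Mb (56.6 ± 1.75%), 13.0 to 13.2 Mb (58.2 ± 1.59%), 18.5 to 18.7 Mb (59.2 ± 0.32%) and 20.8 to 21.0 Mb (55.2 ± 7.06%). They were not all built alike. From 12.4 to 12.6 Mb and from 13.0 to 13.2 Mb only 2 domains were centred, and 1 of them, of 90729 and 87549 bp, took most of the covered bases. From 8.8 to 9.0 Mb, 6 domains of at most 22587 bp did, and from 18.5 to 18.7 Mb 5 domains of at most 39967 bp.

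Poor stretches, the same in the bottom 20%, also numbered 8 and added up to 1800 kb. They lay from 2.5 to 2.7 Mb, 11.6 to 11.8 Mb, 13.3 to 13.5 Mb, 16.0 to 16.2 Mb, 17.0 to 17.3 Mb, 17.5 to 17.7 Mb, 17.8 to 18.1 Mb and 20.1 to 20.3 Mb, and none was covered to more than 1.78% on average over the replicates. The stretch from 11.6 to 11.8 Mb had no cluster base in any of the 3 lists. That from 16.0 to 16.2 Mb had none in either replicate and 1 member, of 1189 bp. From 17.0 to 18.1 Mb 3 poor stretches followed one another, interrupted among others by the rich window from 17.4 to 17.5 Mb (42.3 ± 1.22%), which held most of a group of 3 domains from 17374518 to 17461688. A rich and a poor patch could thus sit next to each other within a poor megabase.

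Members differed between rich and poor windows in width and in support, and less in value. The 34 windows in the top 20% of both replicates held 281 members, or 8.26 per window, with a median width of 2863 bp, and 151 of them (53.7%, interval 47.7 to 59.7) were found in both replicates. The 32 windows in the bottom 20% of both held 59 members, or 1.84 per window, with a median width of 1227 bp, of which 5 (8.47%, interval 2.81 to 18.7) were found in both and 38 in neither. The windows between them held 9.33 members per window, of which 35.6% were found in both. A rich window thus had no more clusters than a middling one, but wider ones. The median values were 0.45 in rich, 0.42 in middling and 0.46 in poor windows. The choice of these windows used the covered share in the replicates, so the widths and the support follow from it in part and are given as a description. All 34 rich windows held the centre of at least 1 domain, as did 53 of the 124 middling ones and none of the poor ones.

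Some borders between rich and sparsely covered windows were sharp, and those named here are among the largest of the 189 steps between neighbouring windows. The median size of a step, up or down, was 13.8 percentage points. How many borders were sharp was not counted. All of them lie on the fixed grid of 100 kb windows, so they do not place the edge of a covered stretch. The steps were not taken again on a shifted grid. At 9.1 Mb the window to the right was covered to 73.5% in replicate 1 and 71.2% in replicate 2, and the window to the left to 0 and 2.96%. At 13.5 Mb the right side had 68.0% and 71.5% and the left side 0 and 1.81%, and at 4.0 Mb the right side had 63.7% and 62.7% and the left side 0 and 1.37%. The largest steps down were smaller than the 4 largest steps up. At 14.7 Mb, the end of the longest rich stretch, the right side had 8.48% in replicate 1 and 25.2% in replicate 2, and the left side 78.6% and 73.3%. At 4.1 Mb it was 5.98% and 8.27% on the right and 63.7% and 62.7% on the left, so the window from 4.0 to 4.1 Mb stood alone between sparsely covered neighbours. Its coverage came mainly from 1 domain of 43089 bp from 4023986 to 4067074. The window from 9.0 to 9.1 Mb was the reverse, with 1.48 ± 2.09% between neighbours at 54.8 ± 13.7% and 72.4 ± 1.58%.

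The longest gaps between neighbouring members were almost empty in the replicate lists as well. The longest, from 11532991 to 11803349, measured 270359 bp, and replicate clusters reached into it only at its margin, over 0.0018% of its length in replicate 1 and 0.0092% in replicate 2. Gaps of 207663 bp from 15930047 to 16137709, of 166485 bp from 17786067 to 17952551 and of 142627 bp from 20492249 to 20634875 held no cluster of either replicate. Within the gap of 171747 bp from 5552047 to 5723793, replicate 2 had 1 cluster, over 0.966% of it, and replicate 1 none. Gaps of at least 20 kb numbered 138 and took 40.0% of the interior, against 29.8% on 3L, 32.0% on 2R, 41.1% on 3R and 43.6% on X. Most gaps were short, with a median of 2343 bp, and 499 of the 1497 (33.3%) were of at most 1 kb.

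In bases covered inside members, the 2 replicates differed mainly in the shorter members, by width in the combined list. Inside domains, replicate 1 covered 2.71 Mb and replicate 2 covered 2.73 Mb, 90.3% and 90.9% of the domain bases. Inside members of 10 kb or less, replicate 1 covered 1.62 Mb (46.5%) and replicate 2 covered 2.12 Mb (61.1%), 1.31 times as much. By their own widths the replicates differed in wide clusters too. Replicate 1 had 99 clusters over 10 kb, with 46.2% of its cluster bases, and replicate 2 had 93, with 36.7%. Of the 886 clusters of replicate 1, 731 (82.5%) overlapped one of replicate 2, and of the 1228 of replicate 2, 774 (63.0%) overlapped one of replicate 1. Replicate 2 covered more in 119 of the 190 windows and replicate 1 in 56. The largest excess of replicate 2 lay from 6.2 to 6.3 Mb, with 15.2% in replicate 1 and 37.9% in replicate 2, in a window of 22 members and no domain. From 2.4 to 2.5 Mb it was 14.4% and 35.3%. From 8.8 to 8.9 Mb and 8.9 to 9.0 Mb, replicate 1 had 41.4% and 45.1% and replicate 2 had 61.0% and 64.5%, and this rich stretch holds the domain least covered in replicate 1. No window went as far the other way, the largest excess of replicate 1 being 37.2% against 29.2% from 5.9 to 6.0 Mb. The excess of replicate 2 was not the same on all arms. Over the whole interior, replicate 2 covered 1.14 times the bases of replicate 1 on 2L. The ratio was 1.09 on 2R, 1.10 on 3L, 1.10 on 3R and 0.892 on X. The cause was not tested, and without read numbers a difference in depth between the libraries and a difference in chromatin cannot be told apart.

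Set beside the interiors of the other arms, 2L was not at either end in density, coverage or support by both replicates. Its members numbered 78.8 per Mb, against 71.4 on X, 80.6 on 3R, 87.0 on 3L and 87.5 on 2R. Its covered share of 24.7 ± 2.22% lay between 20.8 ± 1.67% on X and 28.9 ± 1.86% on 3L (SD, n = 2). In replicate 1 the share was 23.1% on 2L and 22.0% on X, and in replicate 2 it was 26.2% and 19.6%. Members found in both replicates made up 38.0% on 2L and between 37.1% on 3R and 40.0% on X. Domains numbered 7.26 per Mb on 2L (interval 6.10 to 8.58), against 6.46 on X, 6.86 on 3R, 9.35 on 3L and 9.45 on 2R (interval 8.05 to 11.0). Its share of members found in neither replicate was the lowest of the 5 arms (27.7%, against 28.3% to 30.9%, with overlapping intervals), and its share found in replicate 2 alone the highest (25.1%, against 14.1% on X and 23.5% to 24.8% on the others). None of these differences was tested.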

How the data were processed

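LSD1 ChIP-seq lists from 2 ChIP samples and a list of the replicate set were used, and the 2 input samples entered only through the authors' calls. Bowtie 0.12.7 is named in the submitters' processing notes. Not given in the sources used here are the caller, its threshold, the scaling to input and how the combined list was made. The value of each cluster is the authors' deposited score, with no unit named per the file headers. Start and end are given on FlyBase release 5 per the file headers. The release of the gene table at hand differs, so no gene was assigned and no sequence printed.

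From the lists, overlap (1 bp or more), covered shares, full 100 kb windows, and clusters over 10 kb were computed with pandas 2.3.3, scipy 1.17.1, numpy 2.4.6 and Python 3.11.15. Overlap and coverage were tested on simulated data. Shares carry exact binomial (Clopper-Pearson) and densities exact Poisson 95% intervals. The top and bottom 10% and 20% of windows were ranked in each replicate. An entry marked as depleted (1 in the combined list) was left out. The read depth is unknown. Named regions follow a fixed rule: the 12 widest members, the 10 with the largest value, the top 3 of each support class, the 10 richest and poorest windows, adjacent rich or poor windows, the 5 largest steps, the 8 longest gaps, the 5 least covered domains and the 5 largest replicate differences. Domain groups, domain-free parts, repeated values and edge profiles were chosen after the lists were seen. Members, lists and rules were chosen with earlier results of these data known. Alternatives covered the overlap rule, stricter values, interior bounds, window size and grid, domain width and leaving out a replicate.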

Additional observations from a re-analysis of the deposited data

How the results depend on the processing

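Of 51 alternative values, 17 moved by more than the spread, the interval, 0.05 in a correlation or 1.5 times in a count. A change of direction was not assessed. Support in both replicates, 38.0% of members, was 31.5% with 50% of the member covered and 25.4% with reciprocal overlap. It was 19.4% with the top 50% of each replicate list by value and 65.2% among the top 50% of the combined list. Support in neither, 27.7%, was 33.7% with reciprocal overlap, 60.3% with the stricter replicate lists and 17.3% in the stricter combined list. The stricter lists covered 18.6% of the interior and held 26.9 clusters per Mb, against 24.7% and 55.6. Leaving out a replicate gave 23.1% to 26.2% and 46.6 to 64.6 per Mb, within the SD of 2 values by construction. By number of midpoints, the windows correlated with r of 0.79 in place of 0.96, and the top 10% shared 52.6% in place of 78.9%. Domains numbered 286 over 5 kb, 52 over 20 kb and 176 with members joined across 1 kb, against 138. Those covered to at least 50% in each replicate were 84.3%, 100% and 83% of them, against 97.8%, and the median number of replicate 1 clusters over 5 kb was 1, against 2. Windows of 20 kb and 1 Mb (r of 0.93 and 0.98) were chosen after seeing the data. The causes were not tested. No paired analysis was possible because the input samples have no list of their own. Read numbers are not in the lists, so what depth limits was not tested.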
